A study of Mus musculus with 6 samples.

Results

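Transcripts of 10 genes of the Notch pathway were followed in 6 mouse cells, 3 circulating tumor cells (CTCs, tumor cells recovered from blood) and 3 tumor cells. The genes were taken by symbol from a table of 45038 rows, and all 10 were found once each: the receptors Notch1, Notch2 and Notch3, the ligands Dll1, Dll3 and Jag1, the DNA-binding factor Rbpj, and the factors Hes1, Hes5 and Hes6. The sample titles carry the names 1157, 1168 and PDGF1, read here as 3 mice that each gave 1 CTC and 1 tumor cell. The titles of the tumor cells carry the letters GBM. Genotype, strain, age and treatment of these mice are not given in the sources used here, nor is what drove the tumors. The source label calls the CTCs single cells and does not use that word for the tumor cells. The table holds 1 column per cell, so each mouse contributed 1 value per gene and group.

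Notch receptors span the cell membrane and are bound by ligands of the Delta-like and Jagged families on a neighbouring cell. Binding leads to cleavage of the receptor by ADAM proteases and then by gamma-secretase. The freed intracellular domain enters the nucleus, joins Rbpj and a Mastermind coactivator, and turns on repressor genes of the Hes and Hey families. In the neural lineage Hes1 and Hes5 hold progenitors undifferentiated by repressing factors that drive differentiation. Hes6 is a related protein that antagonizes Hes1, is not itself a classical Notch target, and goes with neural differentiation. Dll3 differs from the other ligands in that it acts within the same cell, mostly as an inhibitor.

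Values are FPKM (fragments per kilobase of transcript, relative to library size). Levels of different genes can be set beside each other only as far as coverage along transcripts was even, which was not tested. The cells differed widely in content. Named protein-coding genes took 85.3% (CTC) and 72.1% (tumor cell) of all FPKM in mouse 1168, against 51.8% and 18.0% for mouse 1157 and 11.9% and 23.2% for mouse PDGF1. Among these genes, 43.1% and 49.9% reached 1 FPKM in the cells of mouse 1168, against 4.85% to 16.0% in the other cells. Low values recur in fixed steps, which let the mapped fragments per library be estimated, in units of 1000000, at 10.8 (tumor cell of mouse 1157) to 52.1 (tumor cell of mouse 1168). At that depth 25 of the 60 values of the 10 genes rest on fewer than 10 fragments, including 6 listed at 0. In mice 1157 and PDGF1, 38 of 40 values lay at or under the 99th percentile of olfactory and vomeronasal receptor genes of the same cell. Outside the nose these receptor genes should be silent, so they serve as a measure of background. The labelled cell type was checked by markers: 7 of 8 oligodendrocyte progenitor genes, which many glioma cells also carry, reached 1 FPKM in both cells of mouse 1168, 4 (CTC) and 3 (tumor cell) of 8 did so in mouse 1157, and 0 of 8 in both cells of mouse PDGF1. Housekeeping genes, 6 in all, summed to 3969 and 6484 FPKM in mouse 1168, to 1442 and 24.1 in mouse 1157 and to 7.92 and 21.2 in mouse PDGF1. The astrocyte gene Gfap was at most 0.609 FPKM in any cell.

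**Figure D1:**
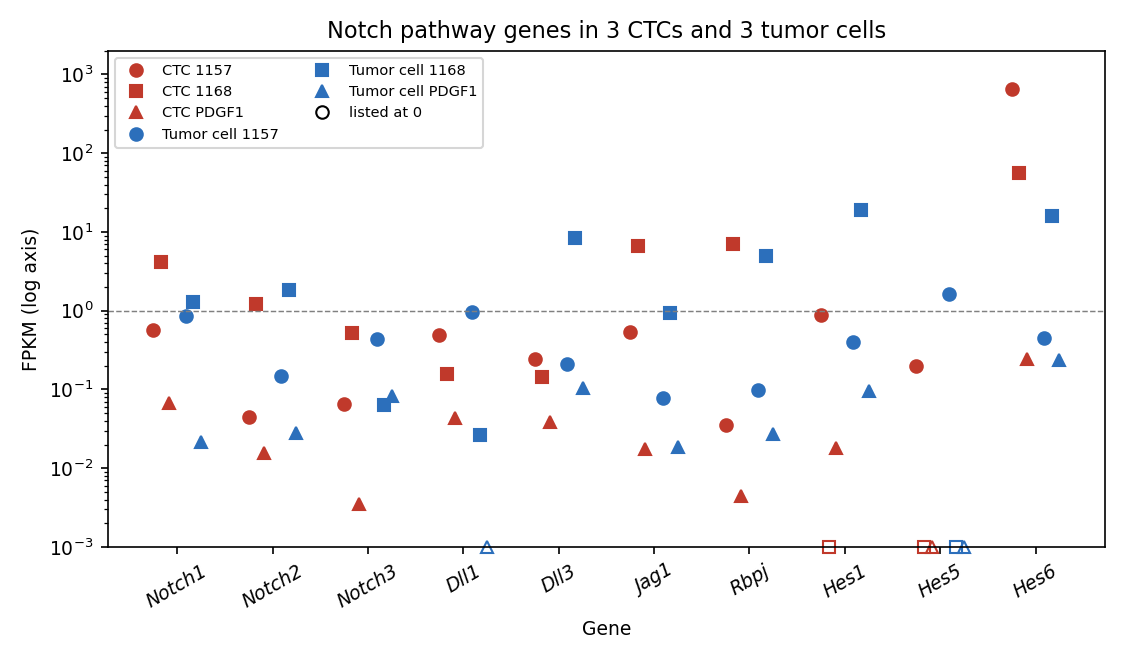
FPKM of the 10 genes on a log axis, with CTCs in red and tumor cells in blue, the shape of the symbol giving the mouse, and open symbols on the lower edge for values listed at 0. The dashed line is 1 FPKM. Apart from Hes6 and Hes5 in mouse 1157 only squares (mouse 1168) lie above it, and Hes6 in the CTC of mouse 1157, at 659 FPKM, is the highest.

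In FPKM, both cells of mouse 1168 held receptor, ligand and Rbpj transcripts, while the cells of mice 1157 and PDGF1 held little of them. At 1 FPKM or more, the CTC of mouse 1168 had 5 of the 10 genes (Notch1, Notch2, Jag1, Rbpj and Hes6) and its tumor cell had 6 (Notch1, Notch2, Dll3, Rbpj, Hes1 and Hes6). In mouse 1157 the CTC had Hes6 alone and the tumor cell Hes5 alone. In mouse PDGF1 both cells had 0. The mean within-mouse difference in this number was -0.333 ± 0.577 (SD, n = 3 pairs), a description with no test.

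Among the receptors, Notch1 (chromosome 2, 26457903 to 26516663, minus strand, GRCm38) had the highest single value. Taking mice 1157, 1168 and PDGF1 in that order here and below, the CTCs held 0.563, 4.15 and 0.0666 FPKM and the tumor cells 0.867, 1.30 and 0.0214. The groups overlapped: the CTC was higher in mice 1168 and PDGF1 and lower in mouse 1157. The 2 values of mouse 1168 correspond to about 1163 and 643 fragments, those of mouse PDGF1 to 25.4 and 7.77. The receptor background of mouse 1168 was 0.148 FPKM (CTC) and 1.27 (tumor cell), so the tumor cell value of 1.30 lay barely above it.

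Notch2 (chromosome 3, 98013527 to 98150361, plus strand) was at 0.0443, 1.21 and 0.0158 FPKM in the CTCs and at 0.148, 1.84 and 0.0282 in the tumor cells, in the same order of mice. It was the 1 gene of the 10 that was lower in the CTC in all 3 mice, although the groups overlapped. Over all genes listed above 0 in at least 1 cell, 12.5% were lower in the CTC in all 3 mice, beside 1 of these 10. That share includes genes at 0 in both cells of a mouse, which cannot count, so the shares are not like for like. Expressed relative to the named protein-coding total of each cell, Notch2 turned in mouse PDGF1, at 2.83 (CTC) against 2.37 (tumor cell) per 1000000. Notch3 (chromosome 17, 32120820 to 32166852, minus strand) stayed under 1 FPKM everywhere, with 0.0647, 0.517 and 0.00349 in the CTCs and 0.433, 0.0634 and 0.0835 in the tumor cells. The CTC was the higher of the pair in mouse 1168 and the lower in the other 2 mice. The value of 0.00349 FPKM is worth about 1.12 fragments.

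A gene on the opposite strand overlaps the end of Notch1. Gm13568, a noncoding transcript at 26457144 to 26458316 on the plus strand, shares 414 of its 1173 bases with the Notch1 locus, and reached 257 (CTC) and 43.7 (tumor cell) FPKM in mouse 1168. It was at 0.210 and 0.378 FPKM in mouse 1157 and at 1.08 and 9.54 in mouse PDGF1. A further gene, 0610009E02Rik, overlaps it on that strand and was at most 2.38 FPKM. Both Gm13568 and Notch1 were thus higher in the CTC than in the tumor cell of mouse 1168. The libraries were stranded, but the sources used here do not say whether quantification used strand. It is thus not known whether reads of this overlap were told apart. The same holds for Notch3 and Dll1, which overlap the opposite-strand genes Gm17276 and A930024N18Rik, both under 1 FPKM in all 6 cells.

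The ligands went different ways within mouse 1168, with Jag1 the ligand of the CTC and Dll3 that of the tumor cell. Jag1 (chromosome 2, 137081456 to 137116644, minus strand) was at 0.530, 6.62 and 0.0177 FPKM in the CTCs and at 0.0787, 0.931 and 0.0188 in the tumor cells. The CTC was the higher of the pair in mice 1157 and 1168, by 6.73-fold and 7.12-fold, and both cells of mouse PDGF1 held few fragments (3.99 and 4.03). In mouse 1157 the order rests on 75.4 against 4.77 estimated fragments and turned on the scale of the protein-coding total (4.33 against 5.45 per 1000000). In mouse 1168 the tumor cell value of 0.931 FPKM lay under the receptor background of its cell (1.27).

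Dll3 (chromosome 7, 28293553 to 28302238, minus strand) was at 0.241, 0.143 and 0.0382 FPKM in the CTCs and at 0.213, 8.43 and 0.103 in the tumor cells. The tumor cell of mouse 1168 stood apart from the other 5 cells, none of which exceeded 0.241. In that mouse the level was 59.1-fold higher in the tumor cell, with about 1149 fragments against 11.0. Dll1 (chromosome 17, 15367354 to 15376872, minus strand), an activating ligand, stayed under 1 FPKM, with 0.489, 0.159 and 0.0435 in the CTCs and 0.950, 0.0262 and 0 in the tumor cells. Its groups overlapped, and 3 of its 6 values rest on fewer than 10 fragments.

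Rbpj (chromosome 5, 53466152 to 53657362, plus strand) was present at like levels in both cells of mouse 1168. It was at 0.0349, 7.05 and 0.00444 FPKM in the CTCs and at 0.0984, 5.02 and 0.0272 in the tumor cells. The ratio of CTC to tumor cell in mouse 1168 was 1.41 in FPKM and 1.01 relative to the protein-coding total. The 4 values of the other mice rest on 0.978 to 5.83 estimated fragments.

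The Hes genes differed among themselves in where they were found. Hes1 (chromosome 16, 30064384 to 30067796, plus strand) was listed at 0 in the CTC of mouse 1168 and was at 18.9 FPKM in its tumor cell, about 1446 fragments. In mice 1157 and PDGF1 it was at 0.894 and 0.0182 FPKM in the CTCs and at 0.404 and 0.0951 in the tumor cells. The tumor cell was thus the higher in mice 1168 and PDGF1 and the lower in mouse 1157, where the order turned relative to the protein-coding total (7.31 against 28.0 per 1000000). The CTC of mouse 1157, with about 33.3 fragments, lay above the receptor background of its cell (0.770 FPKM).

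Hes5 (chromosome 4, 154960923 to 154962371, plus strand) was listed at 0 in both cells of mouse 1168 and of mouse PDGF1. In mouse 1157 it was at 0.200 FPKM in the CTC and at 1.65 in the tumor cell, under the receptor background of 1.94 there. The noncoding gene Gm20421, which overlaps Hes5 on the opposite strand over 756 bases, was at 0.802 and 2.10 FPKM in the same cells and at 0 in both cells of mouse 1168. Whether its reads were told from those of Hes5 is not known, since the use of strand in quantification is not stated.

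Hes6 (chromosome 1, 91411483 to 91414038, minus strand) had the highest FPKM of the 10 genes in 4 of 6 cells. The exceptions were the tumor cells of mice 1157 (Hes5) and 1168 (Hes1). The CTCs held 659, 56.8 and 0.243 FPKM and the tumor cells 0.455, 15.7 and 0.234. The CTC was the higher of the pair in all 3 mice, although the groups overlapped. In mouse 1168 the ratio was 3.60. In mouse 1157 the tumor cell held about 6.55 fragments, and its 0.455 FPKM lay under the receptor background of 1.94. In mouse PDGF1 about 13.1 fragments stood against 11.9, both values under the receptor backgrounds of 2.70 and 7.10 FPKM. Over all genes listed above 0 in at least 1 cell, 3.51% were higher in the CTC in all 3 mice, and 1 of these 10 genes was. That share includes genes at 0 in both cells of a mouse, which cannot count, so the 2 shares are not like for like. Relative to the protein-coding total the order held in each mouse. With about 22286 fragments in the CTC of mouse 1157, Hes6 ranked 45 of 18771 named protein-coding genes in that cell, against ranks of 1172 (CTC) and 2616 (tumor cell) for mouse 1168.

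**Figure D2:**
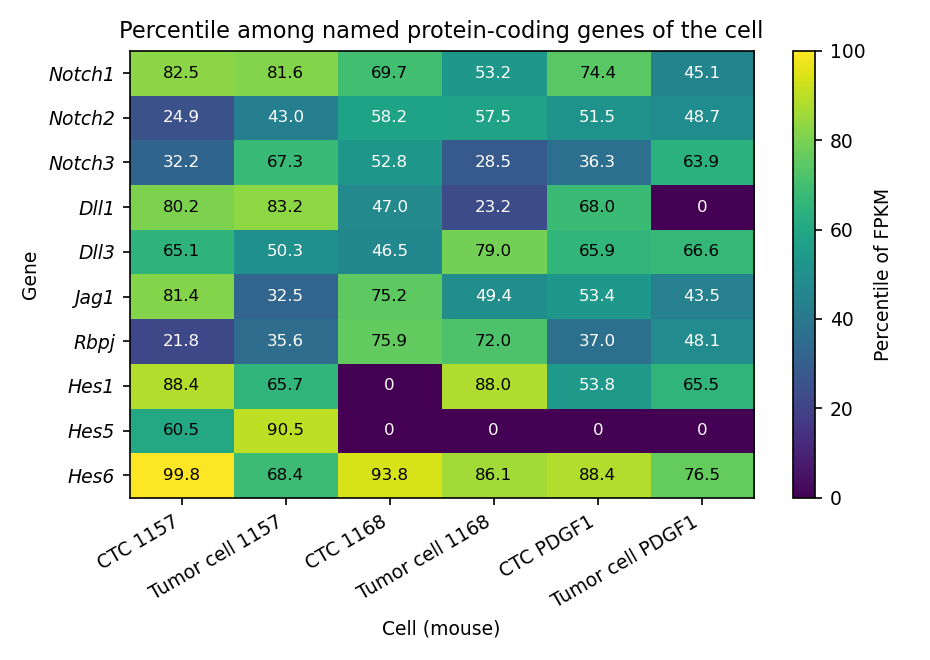
Percentile of each gene's FPKM among the named protein-coding genes of the same cell, from 0 (dark) to 100 (yellow), with 0 printed where the value is listed at 0. Hes6 lies between 68.4 and 99.8 in the 6 cells, and Hes1 lies at 0 in the CTC and at 88.0 in the tumor cell of mouse 1168.

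Hes5 and Hes6 are shown by the 250 bases before their start sites because Hes5 is a textbook target of the Notch and Rbpj complex, and its level here was so unlike that of Hes6. Sequences are from RefSeq on GRCm38.p6, which held a promoter for 9 of the 10 genes (not for Hes1). Windows of 300 bases, from 250 before to 50 after the start, were searched on both strands for TGGGAA, the core letters that Rbpj recognizes, and for GTGGGAA, which contains it. The Hes5 window holds the core in 2 places, starting 226 bases before the start site (as TTCCCA, the reverse complement) and 82 bases before it, and both lie within GTGGGAA. Of 32851 mouse promoter windows, 25.6% hold TGGGAA at least once and 3.79% at least 2 times, and 0.256% hold GTGGGAA at least 2 times. Neither of the Hes6 windows holds TGGGAA. Of the 9 genes searched, Rbpj has TGGGAA besides Hes5, without GTGGGAA. The printed stretches are chr4:154960673-154960922 (Hes5, plus strand) and chr1:91413223-91413472 (Hes6, minus strand, at the start of its coding transcript), with the core in capitals.
Hes5: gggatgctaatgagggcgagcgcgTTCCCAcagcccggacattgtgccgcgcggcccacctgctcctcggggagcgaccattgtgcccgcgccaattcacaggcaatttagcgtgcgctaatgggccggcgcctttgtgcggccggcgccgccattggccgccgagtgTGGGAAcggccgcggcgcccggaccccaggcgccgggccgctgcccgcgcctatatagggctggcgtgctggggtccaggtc
Hes6: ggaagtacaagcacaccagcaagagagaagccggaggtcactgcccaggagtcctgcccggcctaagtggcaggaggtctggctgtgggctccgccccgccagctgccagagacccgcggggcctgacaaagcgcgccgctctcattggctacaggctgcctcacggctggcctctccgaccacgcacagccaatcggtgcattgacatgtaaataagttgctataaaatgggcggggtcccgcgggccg
A match describes letters only, and no binding was measured in these cells.

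Within mouse 1168, 7 of the 10 genes were measured, that is, at 1 FPKM or more in either cell. The CTC was higher by at least 1 on the log2(FPKM + 1) scale for Notch1 (1.16), Jag1 (1.98) and Hes6 (1.79), and lower by at least 1 for Dll3 (-3.04) and Hes1 (-4.32). The other 2 measured genes, Notch2 (-0.36) and Rbpj (0.42), differed by less. Of all 12396 genes at 1 FPKM or more in either cell of that mouse, 22.7% were higher and 24.9% lower in the CTC by that size, and the median difference was 0.04. The 3 and 2 of 7 genes stand beside those shares as a description, since 1 library is compared with 1 other and no replicate check exists. On the protein-coding scale Notch1, Jag1 and Hes6 stayed higher in the CTC, at 2.28-fold, 5.09-fold and 2.58-fold, and Dll3 lower.

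Markers of other cell types also differed within mouse 1168, in both directions. The summed FPKM of 11 microglia and macrophage genes was 224 (CTC) and 2314 (tumor cell) for mouse 1168, where 4 and 9 of 11 reached 1 FPKM. In the other 4 cells the sum was at most 25.7. In mouse 1168, Tmem119 (0 against 0.814 FPKM), P2ry12 (0.0331 against 1.02) and Cx3cr1 (0.0213 against 0.0301) were the lowest of the 11 in the tumor cell. Itgam was at 0.229 against 2.35, Csf1r at 0.0589 against 3.52 and Aif1 at 0 against 7.21. Higher in the tumor cell were Trem2 (0.0975 against 26.3), Cd68 (1.47 against 51.9), Tyrobp (28.4 against 346), Ctss (19.4 against 672) and Lyz2 (174 against 1202). Leukocyte genes summed to 1.26 and 253, reaching 1 FPKM for 0 and 3 of 6, and mature oligodendrocyte genes to 1.75 and 42.7, for 1 and 2 of 4. The sum of oligodendrocyte progenitor genes went the other way, at 315 (CTC) and 185 (tumor cell). So did that of astrocyte and radial glia genes, at 2546 and 1141. Olig1 (199 and 138 FPKM) and Fabp7 (2346 and 1059) made up most of these sums. Sox10 (6.54 against 18.3) and Gpr17 (0.113 against 10.3) were lower in the CTC. Gfap, Aqp4 and Aldh1l1 were lower too, each under 1 FPKM in both cells, and the other genes of both lists were higher. Endothelial genes summed to at most 9.19 FPKM in any cell and neuron genes to at most 6.19. The part of any such cell type in the Hes1 and Dll3 values of that tumor cell was not tested. The platelet gene Itga2b was at 68.0 FPKM in the CTC, while Ppbp was at 0 and Pf4 at 0.0822 there.

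**Figure D3:**
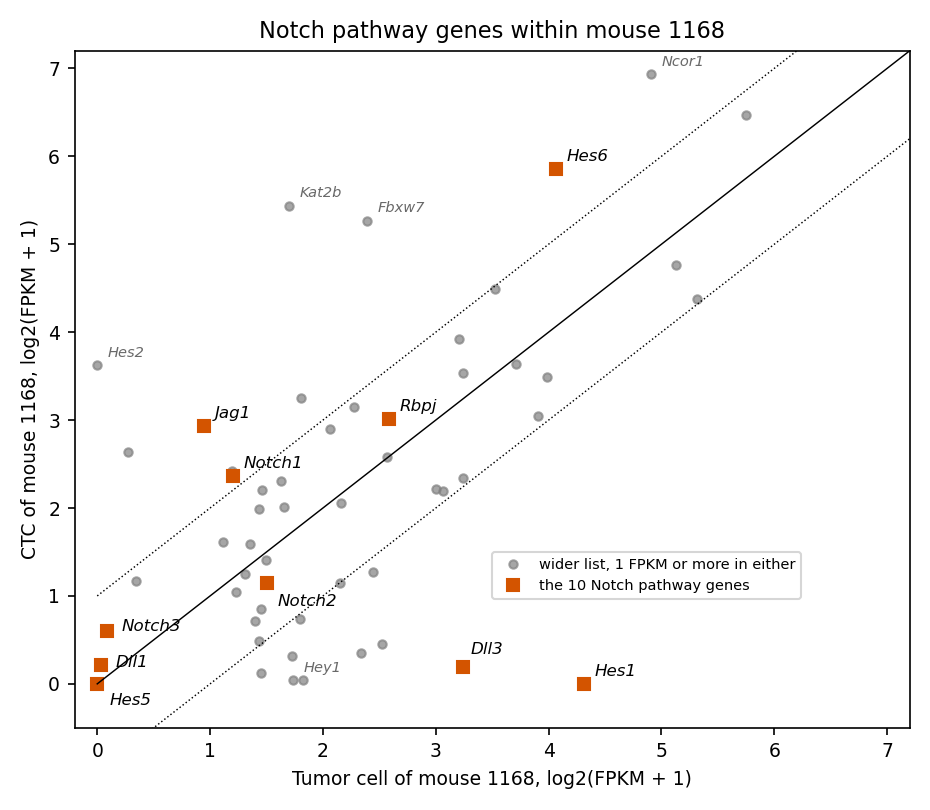
log2(FPKM + 1) in the CTC (vertical) against the tumor cell (horizontal) of mouse 1168, for the 10 genes (orange squares) and the genes of a wider Notch list at 1 FPKM or more in either cell (grey circles). The solid line marks equal levels and the dotted lines a difference of 1, so Jag1, Notch1 and Hes6 lie above the band and Dll3 and Hes1 far below it.

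In mouse 1157 only Hes6 and Hes5 reached 1 FPKM in either cell. Hes6 was higher in the CTC by 8.82 on the log2(FPKM + 1) scale and Hes5 lower, at -1.14. Of 5961 genes measured in that mouse, 29.0% were higher and 37.1% lower in the CTC by at least 1. None of the 10 genes reached that level in mouse PDGF1, where 23.7% of 4042 genes were higher and 59.9% lower.

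Across the 3 mice, no Notch gene passed the threshold between CTCs and tumor cells, which says little about whether they differed. On simulated data with the spread of these cells, the limma fit recovered 0% of genes changed by 2, 4 or 6 on the log2 scale. For none of the 10 did the CTCs lie fully above or fully below the tumor cells, against 0.474% and 2.88% of all genes listed above 0 in at least 1 cell. Only Hes6 reached 1 FPKM in at least 3 cells and entered the fit. Its mean on the log2(FPKM + 1) scale was 5.18 ± 4.56 in CTCs and 1.64 ± 2.11 in tumor cells (SD, n = 3 each), a difference of 3.54 (SE 3.33, limma, adjusted p = 0.9999). The two-sided exact permutation test gave p = 0.3 for Hes6 and from 0.5 to 1 for the other 9 genes, where 3 cells against 3 cannot go below 0.1. Limma called 0 of 4165 genes, or 0%, and 7 had an unadjusted p under 0.05, Hes6 not among them. Both tests leave the pairing by mouse aside. A limma fit with a block for mouse called 1 gene, not one of the 10, and 217 had an unadjusted p under 0.05. Hes6 was among these, with the same difference, an SE of 1.25 and an unadjusted p = 0.00449 (limma, adjusted p = 0.679). That SE draws on the variances of other genes, not on Hes6 alone. The Hes6 differences within mice 1157, 1168 and PDGF1 were far apart, at 8.82, 1.79 and 0.01. The Hes6 difference leaned on mouse 1157. It was 1.45 without that CTC, 0.90 without both cells of that mouse and 5.97 without the CTC of mouse PDGF1, each with the same 4165 genes and with an adjusted p of at least 0.999. Fitted without the filter, the differences of the other 9 genes ran from -1.33 (Hes1) to 0.83 (Jag1), and 0 of 10 passed (limma, smallest adjusted p of the 10 0.992).

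A wider list of 63 pathway genes was read the same way, and all 63 were in the table. Of these, 17 entered the fit, 8 with a positive and 9 with a negative difference (median -0.01, against -0.06 over all 4165 genes), and 0 passed in either direction. The 3 of smallest unadjusted p were Spen, a corepressor bound to Rbpj, at -0.77 (SE 0.783), Tle2, a Groucho corepressor recruited by Hes proteins, at 2.43 (SE 2.49), and Kat2b, an acetyltransferase, at 1.25 (SE 1.54), each with an adjusted p = 0.9999 (limma). In mouse 1168, 45 of the 63 were measured, with 7 (15.6%) higher and 8 (17.8%) lower in the CTC by at least 1, against 22.7% and 24.9% of all genes. In mouse 1157 the counts were 6 (28.6%) and 5 (23.8%) of 21, against 29.0% and 37.1%, and in mouse PDGF1 2 (22.2%) and 5 (55.6%) of 9, against 23.7% and 59.9%. None of these shares lay above that of all genes.

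By mean level the leading corepressor was Ncor1, which sits with Rbpj when Notch is off. The CTCs held 0.986, 121 and 0.548 FPKM and the tumor cells 2.47, 29.0 and 1.96. In mouse 1168, Kat2b was at 42.4 FPKM (CTC) and 2.25 (tumor cell). Spen was lower in each CTC (0.595, 0.810 and 0.00976 FPKM) than in any tumor cell (1.63, 1.74 and 1.02). It was the 1 gene of the 63 with that order, which 2.88% of all genes listed above 0 in at least 1 cell had. The corepressors Tle1, Ctbp1 and Ctbp2 were at 14.2, 19.7 and 10.6 FPKM in the CTC of mouse 1168 and at 8.25, 38.7 and 8.46 in its tumor cell.

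Genes of receptor cleavage had unlike levels in mouse 1168. Psenen, a gamma-secretase subunit, was at 87.6 FPKM (CTC) and 52.9 (tumor cell), Ncstn, another subunit named here after its values were seen, was at 0.244 and 2.32, and Adam10, the protease of the first cleavage, at 10.3 and 14.8. Poglut1, which adds glucose to the receptors, was at 3.57 and 7.37. The ubiquitin ligases Mib1, which acts on ligands, and Itch were at 6.43 and 1.41 FPKM in the CTC and at 3.19 and 4.46 in the tumor cell. Dner, a Notch-binding membrane protein of neural cells, was at 26.1 and 33.9. In the CTC of mouse PDGF1, Itch was at 9.05 FPKM against 1.24 in the tumor cell, and Poglut1 at 1.77 against 4.10. Both Poglut1 values and the Itch value of the tumor cell lay under the receptor backgrounds of 2.70 (CTC) and 7.10 FPKM (tumor cell).

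Further genes of the wider list, chosen after their values were seen, differed within mouse 1168. Hey1, another Notch target, was at 0.0283 FPKM (CTC) against 2.32 (tumor cell), its relative Hey2 at 1.25 against 0.271, and Numb, an inhibitor of the receptors, at 0.0292 against 2.53. Fbxw7, the ubiquitin ligase that ends the signal, was at 37.5 against 4.25, and Hes2 at 11.3 against 0. The target Nrarp was at 0 in that CTC and under 0.5 FPKM in each of the other 5 cells. In the CTC of mouse 1157, Maml3, a Mastermind coactivator, was at 24.5 FPKM against 0.373 in the tumor cell, and Lfng, a glycosyltransferase that tunes ligand choice, at 28.2 against 0.360.

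The named protein-coding genes whose pattern over the 6 cells was most like that of Hes6 were Pithd1 (Pearson's r of log2(FPKM + 1) 0.998), Mrpl57 (0.997), a mitochondrial ribosomal protein, and Tle2 (0.995), out of 3550 genes. For Tle2 the CTCs held 107, 21.5 and 0.0313 FPKM and the tumor cells 0.202, 10.5 and 0.157. The 6 points share the overall content of their libraries, and 172 of the 3550 genes had an r of 0.9 or more with Hes6, so the likeness is a description.

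**Figure D4:**
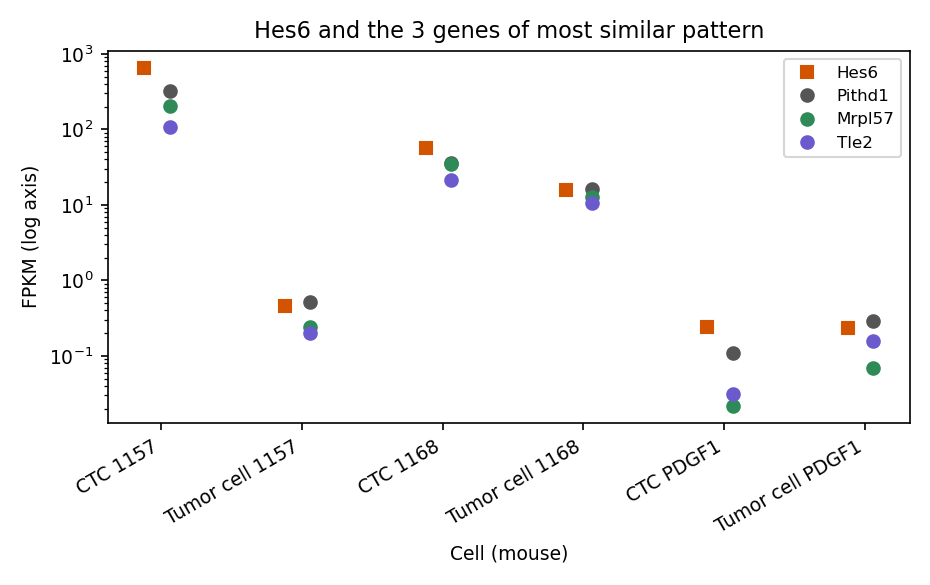
FPKM of Hes6 (orange squares) and of the 3 genes of most similar pattern (circles) in each of the 6 cells, on a log axis. All 4 genes are highest in the CTC of mouse 1157 (107 to 659 FPKM) and under 0.3 FPKM in both cells of mouse PDGF1.

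The fragments behind the values set how firmly they can be read. Values of mouse 1168 for Notch1, Notch2, Rbpj, Jag1 and Hes6 rest on 272 to 2239 estimated fragments. In the tumor cell, though, Jag1 (0.931 FPKM) lay under the receptor background of 1.27 FPKM and Notch1 (1.30) barely above it. In mice 1157 and PDGF1, Hes6 in the CTC of mouse 1157 has by far the most fragments, 22286, and the next is Notch1 in the same cell, at 135. Because RNA was amplified in 3 rounds before sequencing, fragments are not molecules, and many can come from 1 transcript.

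**Figure D5:**
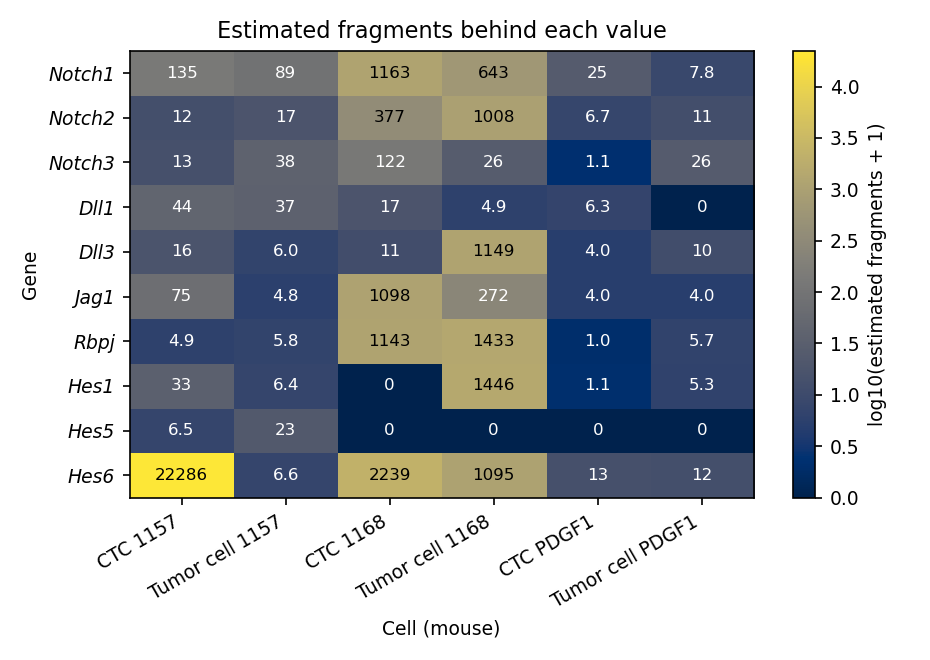
Estimated fragments behind each FPKM value, printed in the cells and coloured as log10(estimated fragments + 1), for the 10 genes (rows) in the 6 cells (columns). The columns of mouse 1168 and the Hes6 value of 22286 in the CTC of mouse 1157 stand out, and 25 of the 60 values are under 10.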

How the data were processed

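RNA of 3 CTCs and 3 tumor cells was amplified linearly and sequenced as stranded libraries, per the labels' protocols. The FPKM values are the authors', deposited for 45038 rows, made with STAR 2.4.2a and Cufflinks 2.2.1 on GRCm38 per the submitters' processing notes. The sources used here do not say how strand and reads with several matches were handled, and gene-level values carry no position, so uneven coverage along long transcripts such as those of Notch1 and Notch2 was not tested. Rows with a name turned into a date (27) or repeated (207) were left out. GENCODE mouse release 21 supplied positions, classes and lengths, and 41450 rows matched it.

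The test was limma 3.58.1 (R 4.3.3) on log2(FPKM + 1) with trended variances, two-sided, for 4165 genes that reached 1 FPKM in 3 or more cells, with Benjamini-Hochberg adjustment over all of them and a threshold of 0.05. Tested on simulated data for CTC against tumor cell over 4165 genes, it recovered 100% of genes changed by 2, 4 or 6 at a spread of 0.3, and 0% at each size at the spread of these cells (median SD 1.88). P-values measure the spread between these cells only, and those of limma share variance across genes. Other steps used scipy 1.17.1, numpy 2.4.6 and pandas 2.3.3 under Python 3.11.15, and figures matplotlib 3.10.9.

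Depth was estimated after the data were seen. In 3097 genes with 1 annotated transcript of over 2000 bases, FPKM times length peaks at the worth of 1 fragment, from which the definition of FPKM gives the mapped fragments. The steps of cell pairs differ from these by at most 0.0267 on the log2 scale, over 15 pairs. Fragments of a gene take its longest coding transcript and stay estimates. The protein-coding scale divides FPKM by the summed FPKM of 18771 named protein-coding genes, per 1000000.

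Each mouse, as read from the sample titles, gave both cells, so the cells are paired by title. With group means removed, the correlation between a mouse's 2 cells across genes was 0.178, 0.689 and 0.428. The alternatives were other pseudocounts, filters and scalings, no trend, the mouse as a block, and leaving out cells or mice. Genes named were the 10 members, the 12 of highest mean level and the 3 of smallest p in the wider list, the 3 most like Hes6, and cell type markers, with exceptions stated. Of the neuron markers, 4 of 5 were used. Members and lists were chosen with earlier results of these data known.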

Additional observations from a re-analysis of the deposited data

How the results depend on the processing

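The Hes6 difference stayed positive in 23 of 23 alternatives that gave a value, from 0.90 to 5.97 on the log2 scale, and missed the threshold in each (limma, adjusted p from 0.679 to 1). The 23 are not separate checks, since a change of filter or trend, or the mouse block alone, cannot alter the difference of 3.54. Some leave-outs also count under both gene sets with the same difference. With the filter applied anew, Hes6 dropped out without either cell of mouse 1168 or the CTC of mouse 1157, and without both cells of either mouse. The mouse as a replicate block called 1 gene in place of 0, the small nucleolar RNA Snora2b, and gave Hes6 an adjusted p = 0.679 with the same difference of 3.54 (limma). Together with quantile normalization it called 0. Every other alternative called 0 genes, and every alternative called 0 of the wider list (none of it was tested without both cells of mouse 1168). The difference in the number of the 10 genes present moved from -0.333 to 1 when counted above the receptor background, and to -2 at 1 per 1000000 of the protein-coding total. It was 0 at 0.5, 5 and 10 FPKM and without mouse 1168. Rescaling to that total moved the median difference of all genes fitted from -0.06 to -1.06, over 16400 genes in place of 4165. On that scale, too, 0 of the 8 members fitted passed, and Notch1 (-0.09) and Rbpj (-1.16) turned from positive to negative. The leave-one-out cells and mice with the 4165 genes kept were added after seeing the data.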
